A study of Mus musculus with 3 samples.

Results

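Imprinted genes were examined in 3 RNA-seq samples of mouse embryonic stem (ES) cells, 1 wild-type (WT), 1 lacking Pcgf1 (Pcgf1-/-) and 1 in which Pcgf1 was put back (Pcgf1-/-+Pcgf1, the rescue). The genes were a fixed list of 48 textbook imprinted genes in 18 clusters, matched to the deposited values by gene symbol. Of these, 29 were named alone in all 3 files, out of 25350 genes named alone in all 3. A further 8 were listed in all 3 files only under a joint name with neighbouring genes, and they are described apart. Another 6 were listed differently from file to file, and 5 were listed in none.

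Imprinted genes are transcribed from 1 parental copy. The choice is set by DNA methylation laid down in the egg or the sperm at an imprinting control region, which often acts on several genes of a cluster at once. The methylation is kept through early development by factors such as Zfp57, Trim28 and Dnmt1, and some clusters, among them those of Kcnq1ot1 and Airn, also carry Polycomb marks on the silent copy. Many imprinted genes act in growth of the embryo and placenta. Pcgf1 is the subunit that defines one of the variant Polycomb repressive complexes 1, whose partner Kdm2b binds unmethylated CpG dinucleotides.

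All 3 samples were C57BL/6 ES cells grown with serum and leukemia inhibitory factor on mouse embryonic fibroblasts that mitomycin-C had stopped from dividing. Pcgf1-/- cells were made with Cas9 and 2 sgRNAs directed to exons 2 and 3 of Pcgf1, and were picked as a single colony, so an effect of the deletion and a difference between clones cannot be told apart. Pcgf1-/-+Pcgf1 cells were these knockout cells infected with a lentivirus that encodes Pcgf1 with an N-terminal FLAG tag and selected with puromycin. With 1 sample per condition, no difference below has a replicate check, and none was tested. The strain is inbred and the files hold no sequence of the reads, so the parental copy behind a transcript was not measured, and "paternally expressed" or "maternally expressed" below is background only.

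The values are FPKM, fragments scaled to the length of the transcript and the size of the library. The first-exon rows and the last-exon rows of a gene were each summed, and the larger sum was its level. For each comparison 0.1 FPKM was added to both values, their log2 ratio was computed, and a gene past a 2-fold ratio was counted as higher or lower. The files give no sequencing depth. Low values moved in steps, and if the lowest step is 1 fragment, then 1 fragment on a transcript of 2000 bases was worth 0.0258 FPKM in WT, 0.0246 in Pcgf1-/- and 0.0245 in the rescue. Pcgf1 itself, the targeted gene, stood at 14.0 FPKM in WT, 5.88 in Pcgf1-/- and 7.86 in the rescue, and its transcript was listed in all 3. The study reported a shortened Pcgf1 mRNA with a frame shift in Pcgf1-/- cells and no Pcgf1 protein on Western blots. These FPKM thus do not measure intact Pcgf1.

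Promoter sequence is shown for Peg3 and Usp29, which start side by side, for Meg3 and for both starts of Sfmbt2, as examples picked with the values known. The sequences are from RefSeq on GRCm38.p6, written 5′ to 3′, with every CG dinucleotide in capitals. The first lies between the outward-facing first exons of Peg3 and Usp29, a stretch of 161 bases at chr7:6730422-6730582 that is given on the plus strand and holds 5 CG. The second is the 250 bases before the RefSeq start of Meg3 at chr12:109540746-109540995 on the plus strand. The last 2 are the 250 bases before each RefSeq start of Sfmbt2, at chr2:10370201-10370450 and chr2:10372186-10372435 on the plus strand.
Peg3-Usp29 interval: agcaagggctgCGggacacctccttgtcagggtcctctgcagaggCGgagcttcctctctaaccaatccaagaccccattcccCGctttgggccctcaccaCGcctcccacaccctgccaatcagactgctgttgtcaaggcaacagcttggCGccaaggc
Meg3: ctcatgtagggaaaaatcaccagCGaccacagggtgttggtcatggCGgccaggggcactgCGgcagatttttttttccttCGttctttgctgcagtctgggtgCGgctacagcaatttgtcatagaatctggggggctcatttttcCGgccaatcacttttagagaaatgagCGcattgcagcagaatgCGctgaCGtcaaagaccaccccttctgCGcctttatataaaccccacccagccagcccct
Sfmbt2, upstream start: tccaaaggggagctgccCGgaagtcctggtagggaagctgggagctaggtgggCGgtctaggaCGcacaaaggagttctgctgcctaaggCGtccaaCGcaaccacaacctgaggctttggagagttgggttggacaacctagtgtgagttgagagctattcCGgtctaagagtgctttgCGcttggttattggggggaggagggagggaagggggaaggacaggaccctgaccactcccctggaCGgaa
Sfmbt2, downstream start: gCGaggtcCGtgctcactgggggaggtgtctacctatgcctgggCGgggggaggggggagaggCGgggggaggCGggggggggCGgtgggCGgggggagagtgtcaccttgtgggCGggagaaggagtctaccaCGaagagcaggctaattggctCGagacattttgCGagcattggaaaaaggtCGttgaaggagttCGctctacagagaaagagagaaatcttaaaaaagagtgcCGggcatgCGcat

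Meg3 held 10 CG in its window, a number reached by 37.8% of the 32851 windows of that length in the RefSeq table. The upstream start of Sfmbt2 held 8 CG, reached by 43.0% of windows, and its downstream start held 15, reached by 27.3%. A promoter window was found for 37 of the 48 genes, 55 windows in all. The motif TGCCGC, which Zfp57 binds when methylated, was searched on both strands as TGCCGC and GCGGCA, and it occurred in 8 of the 55 windows (14.5%) and in 8.68% of all windows. Its 8 windows belonged to 7 genes, namely Copg2, Mcts2, Meg3, Mest, Plagl1, Zdbf2 and Zim1. The palindrome TGACGTCA, the core of the cyclic AMP response element and a motif picked after the sequences had been seen, was in 3 of the 55 windows (5.45%), those of Meg3, Peg3 and Zdbf2, and in 1.55% of all windows. A match in these letters is a description and not a bound site, and many control regions lie outside these windows.

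Most imprinted genes with a level were expressed in WT ES cells at more than 1 FPKM. Of the 29 named alone, 25 were above 0 in WT, 21 reached 1 FPKM and 12 reached 10 FPKM. The highest were Grb10 (69.7 FPKM), Mest (61.2 FPKM), Peg10 (60.3 FPKM) and Cdkn1c (52.8 FPKM), all above the 90th percentile of the 12907 genes above 0 in WT. Kcnq1, Phlda2, Blcap and Kcnk9 were listed at 0 in all 3 samples. A listed 0 need not mean that a gene was silent. The last-exon rows of Mest and Peg3 summed to 0 in WT, where their first-exon rows summed to 61.2 and 32.2 FPKM. Airn, Slc22a3 and Zim1 stayed below 0.2 FPKM in all 3 samples.

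**Figure D1:**
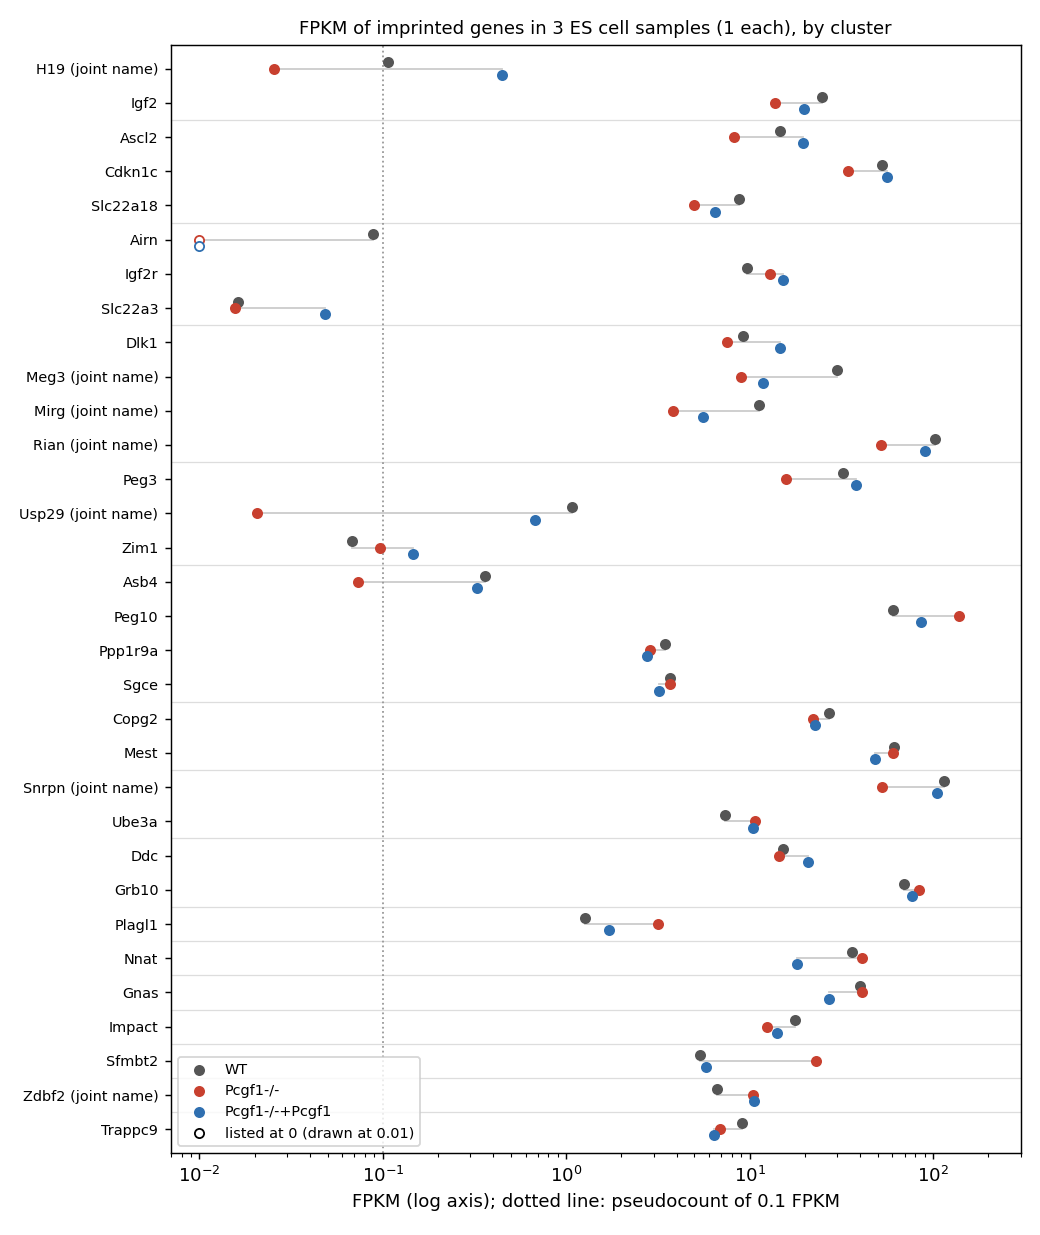
FPKM of every imprinted gene listed above 0, on a log axis, with 1 point for each sample and clusters parted by lines. Sfmbt2, Plagl1 and Peg10 are highest in Pcgf1-/-, and Usp29, Meg3, Mirg, Snrpn and Peg3 are lowest there.

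In Pcgf1-/- cells 3 imprinted genes stood more than 2-fold above WT and 2 more than 2-fold below, out of 25 with a level. The higher genes were Sfmbt2, Plagl1 and Peg10, and the lower ones were Peg3 and Asb4. Over all 13424 genes with a level in either sample, 4.07% were called higher and 9.41% lower. The median log2 ratio was -0.06 over the imprinted genes and -0.12 over all genes. As a group, then, the imprinted genes named alone were centred near the rest, with 3 of 25 (12%) called higher and 2 of 25 (8%) called lower. Among those of at least 1 FPKM in either sample, 3 of 21 were higher and 1 of 21 lower, against 2.98% and 6.11% of all such genes.

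**Figure D2:**
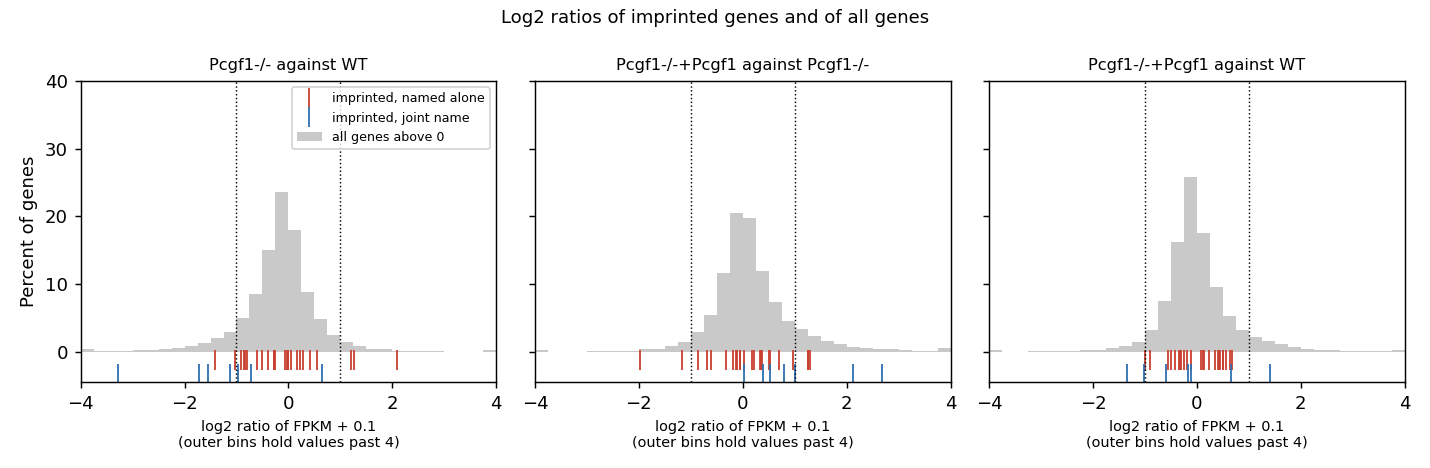
Percent of all genes with a level by log2 ratio of FPKM plus 0.1 (grey bars of width 0.25) for the 3 comparisons, with a tick for each imprinted gene named alone (red) or under a joint name (blue). Dotted lines mark 2-fold, and in Pcgf1-/- against WT 3 red ticks lie past it on the right and 2 on the left.

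Of the genes named alone, Sfmbt2 showed the largest ratio in either direction in Pcgf1-/-. It encodes a Polycomb-related protein with MBT repeats, is paternally expressed in early embryo and placenta, and lies on chromosome 2 of GENCODE vM21 from 10370510 to 10595253. Its level was 5.33 FPKM in WT, 23.0 in Pcgf1-/- and 5.76 in the rescue, a 4.25-fold difference between Pcgf1-/- and WT. The log2 ratio was 2.09 in Pcgf1-/- against WT, -1.98 in Pcgf1-/-+Pcgf1 against Pcgf1-/- and 0.11 in Pcgf1-/-+Pcgf1 against WT. The level with Pcgf1 put back was thus within 1.08-fold of WT.

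The first exon of Sfmbt2 differed as well. In WT its whole level came from transcripts that began at the upstream first exon (10370510 to 10370552, an annotated exon), and the downstream first exon (10372436 to 10372616, also annotated) was listed at 0. In Pcgf1-/- the upstream exon was listed at 0 and the downstream one carried all 23.0 FPKM. In Pcgf1-/-+Pcgf1 an exon that ends at the same splice site as the upstream one carried 4.36 FPKM. Another from 10368505 to 10368539, not annotated for Sfmbt2, carried 1.41 FPKM, and the downstream region was listed at 0. Both promoter sequences printed above belong to these starts, although the rescue exon begins at 10370419, inside the upstream window. The assignment of reads to a first exon was made by the transcript assembly, and an exact 0 there can be a failed estimate.

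**Figure D3:**
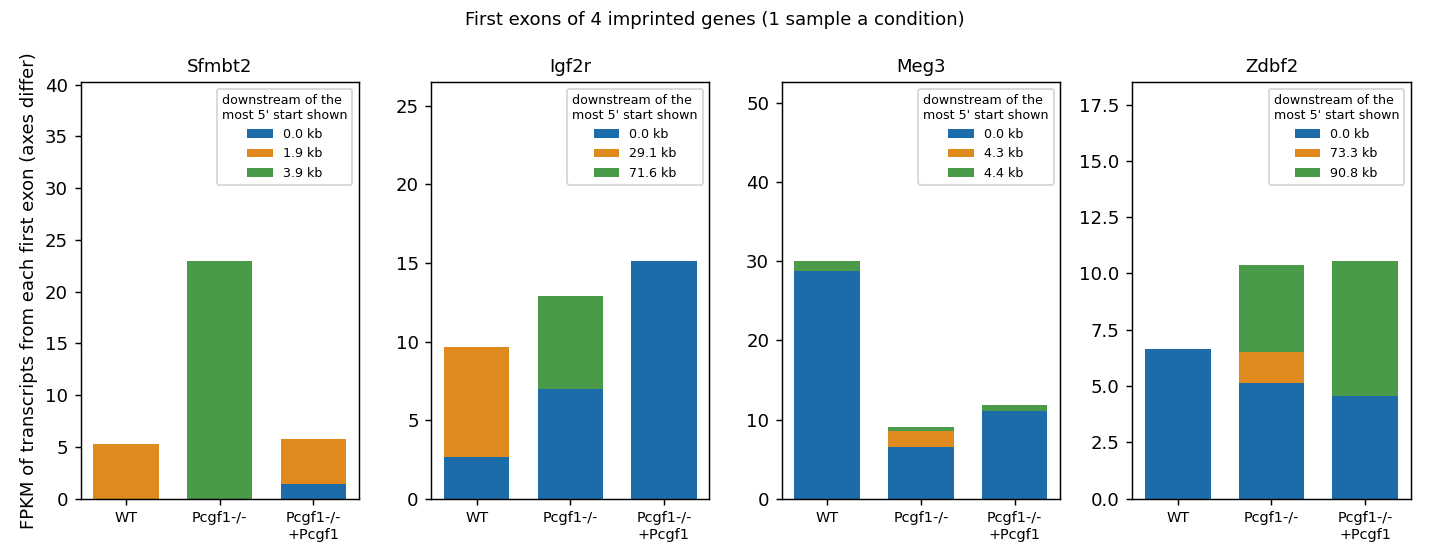
Stacked bars of the FPKM of transcripts from each first exon of Sfmbt2, Igf2r, Meg3 and Zdbf2 in the 3 samples, coloured by the distance of the start from the most 5′ start shown, with exons that share a splice site drawn as 1. The 23.0 FPKM of Sfmbt2 in Pcgf1-/- come from a start that was at 0 in WT and in Pcgf1-/-+Pcgf1.

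Plagl1, a zinc finger transcription factor that is paternally expressed and restrains growth in cultured cells, lies on chromosome 10 from 13060504 to 13131694. Its level was 1.27 FPKM in WT, 3.18 in Pcgf1-/- and 1.72 in the rescue. The log2 ratio was 1.26 in Pcgf1-/- against WT and -0.85 in Pcgf1-/-+Pcgf1 against Pcgf1-/-. On sums over last exons the rescue stood at the level of Pcgf1-/- (log2 ratio -0.07) and past 2-fold above WT (1.18). On first exons listed in all 3 files its ratio to Pcgf1-/- was -3.65, which is not a measure of the level. It rests on the exon from 13090691 to 13091020, at 1.15 FPKM in Pcgf1-/- and 0 in WT and the rescue. In WT and the rescue an exon with the same start was listed to 13091024, at 1.27 and 1.06 FPKM, and was left out. In all 3 samples most of the level came from first exons that begin at 13090691 or 13090712. These FPKM are low, and with a pseudocount of 1 FPKM the first log2 ratio was 0.88, inside the 2-fold band.

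Peg10, a paternally expressed gene derived from a retrotransposon and needed for the placenta, lies on chromosome 6 from 4747306 to 4760517. It stood at 60.3 FPKM in WT, 138.5 in Pcgf1-/- and 85.6 in the rescue. The log2 ratio was 1.20 in Pcgf1-/- against WT, -0.69 in Pcgf1-/-+Pcgf1 against Pcgf1-/- and 0.50 in Pcgf1-/-+Pcgf1 against WT. All of it came from 1 annotated first exon (4747306 to 4747578) in each sample. Among the imprinted genes named alone in all 3 files Peg10 was the highest in Pcgf1-/-, at the 96.8th percentile of all genes above 0.

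None of the 3 neighbours of Peg10 was called higher in Pcgf1-/-. Sgce, which encodes epsilon-sarcoglycan and starts head to head with Peg10, was at 3.69 FPKM in WT, 3.66 in Pcgf1-/- and 3.22 in the rescue. Ppp1r9a, which encodes the actin-binding protein neurabin, was at 3.44, 2.87 and 2.77 FPKM in the same order. Asb4, a suppressor of cytokine signalling box protein, was called lower in Pcgf1-/- at a low level, with 0.361 FPKM in WT, 0.0736 in Pcgf1-/- and 0.326 in the rescue. Its log2 ratio was -1.41 in Pcgf1-/- against WT and -0.34 with a pseudocount of 1 FPKM.

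**Figure D4:**
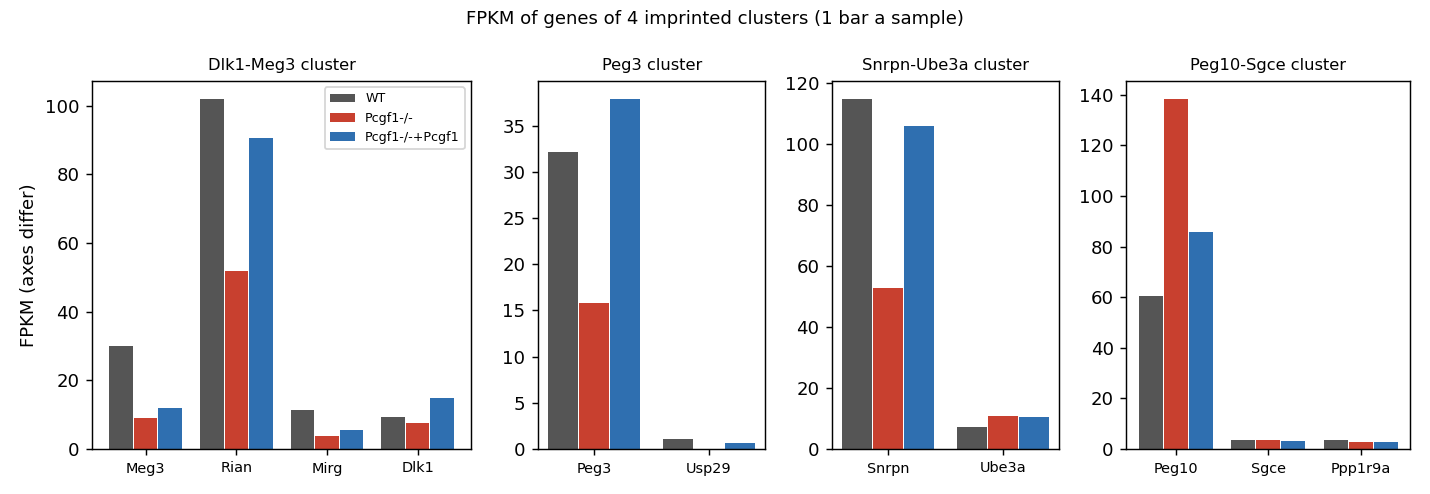
FPKM (linear axes from 0, which differ between panels) of genes of the Dlk1-Meg3, Peg3, Snrpn-Ube3a and Peg10-Sgce clusters, 1 bar for each sample. Meg3, Rian, Mirg, Peg3, Usp29 and Snrpn are lowest in Pcgf1-/-, whereas Peg10 is highest there.

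Peg3, a paternally expressed zinc finger gene that influences growth and maternal behaviour, lies on the minus strand of chromosome 7 from 6703892 to 6730431. Its level was 32.2 FPKM in WT, 15.8 in Pcgf1-/- and 37.9 in the rescue. The log2 ratio was -1.02 in Pcgf1-/- against WT and 1.26 in Pcgf1-/-+Pcgf1 against Pcgf1-/-. The first of these lay just past the 2-fold limit and fell inside it under 2 other settings, with -0.98 at a pseudocount of 1 FPKM and -0.91 after median-of-ratios scaling.

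Usp29, a paternally expressed ubiquitin-protease gene, starts on the opposite strand across the 161 bases printed above. It was listed jointly with Gm27675, at 1.07 FPKM in WT, 0.0207 in Pcgf1-/- and 0.678 in the rescue. The knockout value is at about the worth of 1 fragment, so the log2 ratio of -3.28 against WT depends on the pseudocount. The 2 genes on either side of the printed sequence were thus both lowest in Pcgf1-/-, and in the rescue Peg3 was above WT and Usp29 below it. Zim1, the maternally expressed zinc finger gene of the cluster, was at 0.0677 FPKM in WT, 0.0967 in Pcgf1-/- and 0.147 in the rescue.

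The maternally expressed noncoding RNAs of the Dlk1-Meg3 cluster on chromosome 12 were lower in Pcgf1-/-, 2 of 3 by more than 2-fold. Meg3, a long noncoding RNA, was listed jointly with Gm27300, Mir1906-1 and Mir770, at 30.04 FPKM in WT, 9.02 in Pcgf1-/- and 11.8 in the rescue. Its log2 ratio was -1.73 in Pcgf1-/- against WT and -1.34 in Pcgf1-/-+Pcgf1 against WT on sums over first exons. On sums over last exons, 14.4 FPKM in WT, 4.85 in Pcgf1-/- and 10.6 in the rescue, the log2 ratio in Pcgf1-/- against WT was -1.55, but the rescue was inside the 2-fold band against WT (-0.44) and past it against Pcgf1-/- (1.12), so where Meg3 stood in the rescue depends on the rows used. The annotated first exon (109541001 to 109541099), just after the window printed above, carried 28.7, 6.50 and 11.02 FPKM.

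Mirg, a host transcript of microRNAs, was listed jointly with 9 of them, at 11.3 FPKM in WT, 3.81 in Pcgf1-/- and 5.55 in the rescue. Its log2 ratio was -1.54 in Pcgf1-/- against WT and -1.01 in Pcgf1-/-+Pcgf1 against WT, the latter at the edge and -0.91 with 1 FPKM added. Rian, which hosts small nucleolar RNAs and was listed jointly with 5 or 6 other names, was at 102.1 FPKM in WT, 52.0 in Pcgf1-/- and 90.6 in the rescue. Its log2 ratio of -0.97 in Pcgf1-/- against WT stayed inside the 2-fold band, and the rescue was near WT at -0.17. In Rian most of the level came from 2 overlapping first exons far inside the annotated gene, from 109646141 to 109646751 and from 109646162 to 109651099.

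The microRNAs named within the Meg3 and Mirg loci are shown by 4 of their mature sequences, with the seed (bases 2 to 8) in capitals, since these are the products that the host transcripts carry. They are from RefSeq, and mature microRNAs were not measured by these libraries.
mmu-miR-770-5p: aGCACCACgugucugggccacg
mmu-miR-134-5p: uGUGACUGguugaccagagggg
mmu-miR-382-5p: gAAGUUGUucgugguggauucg
mmu-miR-410-3p: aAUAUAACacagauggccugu
The 11 microRNA genes named in the Meg3 and Mirg loci give 20 mature microRNAs in the table, and these have 20 different seeds, so none is shared. The first of the 4 is from Meg3 and the rest are from Mirg.

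Dlk1, the paternally expressed gene of the cluster, encodes a Notch-like membrane protein that holds back adipocyte differentiation. It stood at 9.15 FPKM in WT, 7.51 in Pcgf1-/- and 14.7 in the rescue. The log2 ratio was -0.28 in Pcgf1-/- against WT and 0.68 in Pcgf1-/-+Pcgf1 against WT, both inside the 2-fold band. Rtl1, a retrotransposon-derived gene listed with Mir136, was at 0 in all 3 samples.

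Snrpn, the paternally expressed gene of the Prader-Willi region that encodes a splicing protein, was listed jointly with Snhg14, Gm38393 and Snord107 on chromosome 7. The locus was at 114.8 FPKM in WT, 52.6 in Pcgf1-/- and 105.7 in the rescue. The log2 ratio was -1.12 in Pcgf1-/- against WT and -0.12 in Pcgf1-/-+Pcgf1 against WT. All of it came from 1 first exon (60005036 to 60005064) in each sample, and the upstream annotated exon of Snrpn (60140141 to 60140219) was listed at 0. Ube3a, a ubiquitin ligase imprinted in neurons, was at 7.31 FPKM in WT, 10.7 in Pcgf1-/- and 10.4 in the rescue. Its log2 ratio of 0.55 in Pcgf1-/- against WT was inside the 2-fold band.

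The single-exon paternally expressed genes of that region, Ndn, Magel2, Mkrn3 and Peg12, were not listed in any file, nor was Peg13. All 5 are single-exon genes in GENCODE vM21. The lists held between 3.24% and 3.61% of the 1328 single-exon protein-coding genes and about 90.7% to 90.8% of the 20566 with several exons, so nothing follows about the levels of these 5. Zrsr1, also a single-exon gene, was listed only in Pcgf1-/-+Pcgf1, at 7.42 FPKM.

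Counted over the joint names, 4 of the 7 loci above 0 were more than 2-fold lower in Pcgf1-/- and none was higher. The lower ones were Meg3, Mirg, Snrpn and Usp29. Over the 13424 genes named alone and these 7 loci, 13431 in all, 9.43% were lower and 4.07% higher. Other jointly named loci were left out, so these loci are set against singly named genes and not against their own kind. Against Pcgf1-/-, 3 of 7 were higher in Pcgf1-/-+Pcgf1, namely Snrpn (at the edge, log2 ratio 1.004), Usp29 and H19, and none was lower. Over a background built in the same way 11.8% were higher and 4.11% lower. Snrpn, Usp29 and H19 all fall inside the 2-fold band with 1 FPKM added (0.99, 0.72 and 0.50). Against WT, Meg3 and Mirg were lower in Pcgf1-/-+Pcgf1, with the limits given above, and H19 was higher, at 0.39 with 1 FPKM added. In that comparison 7.32% of the background were higher and 4.33% lower. With the joint names counted in, 3 of 32 imprinted loci were higher in Pcgf1-/- than in WT and 6 of 32 lower.

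The Igf2-H19 and Kcnq1ot1 clusters lie next to each other on chromosome 7. Igf2, the paternally expressed growth factor, was at 24.9 FPKM in WT, 13.7 in Pcgf1-/- and 19.8 in the rescue, with a log2 ratio of -0.86 in Pcgf1-/- against WT. Of its 3 first exons in use, that from 142657388 to 142657496 carried 17.6, 8.29 and 14.2 FPKM. The first exon from 142660932 to 142661305 carried 2.55 FPKM in WT, 3.26 in Pcgf1-/- and 0 in the rescue. H19, the maternally expressed noncoding RNA that shares enhancers with Igf2, was listed jointly with Mir675 at 0.107 FPKM in WT, 0.0256 in Pcgf1-/- and 0.447 in the rescue. H19 was thus near the worth of 1 fragment in Pcgf1-/- and below 0.5 FPKM throughout, so its ratios rest on few reads.

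In the Kcnq1ot1 cluster 3 maternally expressed genes were lowest in Pcgf1-/-, all inside the 2-fold band against WT. Cdkn1c, an inhibitor of cyclin-dependent kinases, was at 52.8 FPKM in WT, 34.5 in Pcgf1-/- and 56.0 in the rescue, a log2 ratio of -0.61 in Pcgf1-/- against WT. Slc22a18, a membrane transporter, was at 8.76, 4.98 and 6.47 FPKM in the same order, a log2 ratio of -0.80. Ascl2, a trophoblast transcription factor, was at 14.7, 8.19 and 19.7 FPKM, with a log2 ratio of -0.84 in Pcgf1-/- against WT and 1.25 in Pcgf1-/-+Pcgf1 against Pcgf1-/-. The latter was 1 of the 3 calls of higher level in that comparison.

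Cd81, a tetraspanin, was joined with Tssc4 in WT and in Pcgf1-/-+Pcgf1 and named alone in Pcgf1-/-, so only its shared first exon (143052739 to 143053066) could be set side by side. That exon carried 145.4 FPKM in WT, 140.8 in Pcgf1-/- and 115.4 in the rescue. Kcnq1ot1, the long noncoding RNA that silences the cluster in cis, was listed only in Pcgf1-/-+Pcgf1, at 0, and it is a single-exon gene. Kcnq1 and Phlda2 were at 0 in all 3 samples, as given above.

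Igf2r, the maternally expressed receptor that clears Igf2 from the cell surface, was at 9.67 FPKM in WT, 12.9 in Pcgf1-/- and 15.1 in the rescue. Its log2 ratio was 0.41 in Pcgf1-/- against WT and 0.64 in Pcgf1-/-+Pcgf1 against WT. The annotated first exon (chromosome 17, 12769400 to 12769664) carried only 2.64 FPKM in WT, 6.99 in Pcgf1-/- and all 15.1 in the rescue. The rest began at exons inside the gene that are not annotated for Igf2r. These lay from 12740543 to 12740580 in WT (7.03 FPKM) and from 12698014 to 12698052 in Pcgf1-/- (5.93 FPKM). On the annotated first exon alone Pcgf1-/- stood above WT by a log2 ratio of 1.37, past 2-fold. The rescue stood further above WT on that exon, by 2.47. Airn, the antisense noncoding RNA that starts inside Igf2r, was at 0.088 FPKM in WT and listed at 0 in the others, and no fold is given. Slc22a3, a cation transporter, was at 0.0163, 0.0157 and 0.0483 FPKM in WT, Pcgf1-/- and Pcgf1-/-+Pcgf1.

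Genes of the Grb10, Mest and Gnas clusters stayed inside the 2-fold band in Pcgf1-/- against WT. Grb10, an adaptor that dampens insulin signalling, was at 69.7 FPKM in WT, 84.1 in Pcgf1-/- and 76.4 in the rescue, all from 1 first exon (chromosome 11, 12037192 to 12037401). Ddc, the decarboxylase of dopamine synthesis beside it, was at 15.2, 14.5 and 20.7 FPKM in the same order and was spread over several first exons. Mest, a paternally expressed hydrolase-like gene, was at 61.2, 60.4 and 48.2 FPKM, all from the first exon at 30738050 to 30738335 on chromosome 6. Copg2, a coatomer subunit whose last exon overlaps Mest, was at 27.2, 22.3 and 22.8 FPKM.

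Gnas, which encodes the stimulatory G protein alpha subunit, was at 39.8 FPKM in WT, 41.1 in Pcgf1-/- and 27.0 in the rescue. All of it began at the first exon of the main transcript (chromosome 2, 174330006 to 174330434), and the other 7 first exons of Gnas were listed at 0. Nespas, the antisense transcript of the locus, was at 0 in all 3 samples, under a joint name in WT. Nnat, a paternally expressed neuronal proteolipid gene, was at 36.2 FPKM in WT, 40.8 in Pcgf1-/- and 18.0 in the rescue. Nnat was thus past 2-fold below WT in the rescue, but not in the knockout, with a log2 ratio of 0.17 in Pcgf1-/- against WT and -1.002 in Pcgf1-/-+Pcgf1 against WT. The second ratio lay at the edge and fell inside the band at a pseudocount of 1 FPKM (-0.97) and after median-of-ratios scaling (-0.91).

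The last members stayed inside the 2-fold band in all 3 comparisons. Impact, which limits the activation of the kinase Gcn2, was at 17.7 FPKM in WT, 12.5 in Pcgf1-/- and 14.1 in the rescue. Trappc9, a vesicle-transport subunit, was at 9.07, 6.93 and 6.41 FPKM in the same order. Zdbf2, a paternally expressed gene that affects feeding in newborns, was listed jointly with Platr12 at 6.63, 10.4 and 10.6 FPKM.

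The starts of Zdbf2 differed between the samples. In WT all of it came from an upstream exon that ends at 63200674 on chromosome 1. GENCODE vM21 does not give this exon to Zdbf2, although a RefSeq start of Zdbf2 lies in it, and exons of Platr12 were not compared. In Pcgf1-/- that exon carried 5.12 FPKM and in Pcgf1-/-+Pcgf1 4.56 FPKM. The remainder began at exons that GENCODE gives to Zdbf2, chiefly the one from 63290738 to 63290782. It was listed at 0 in WT and carried 3.84 FPKM in Pcgf1-/- and 6.00 in the rescue. H13, a signal peptide peptidase gene, was named alone in WT and Pcgf1-/-+Pcgf1 and jointly in Pcgf1-/- with Mcts2, the single-exon gene inside it. First exons that end at the same position of H13 carried 52.7 FPKM in WT, 37.8 in Pcgf1-/- and 30.4 in the rescue.

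**Figure D5:**
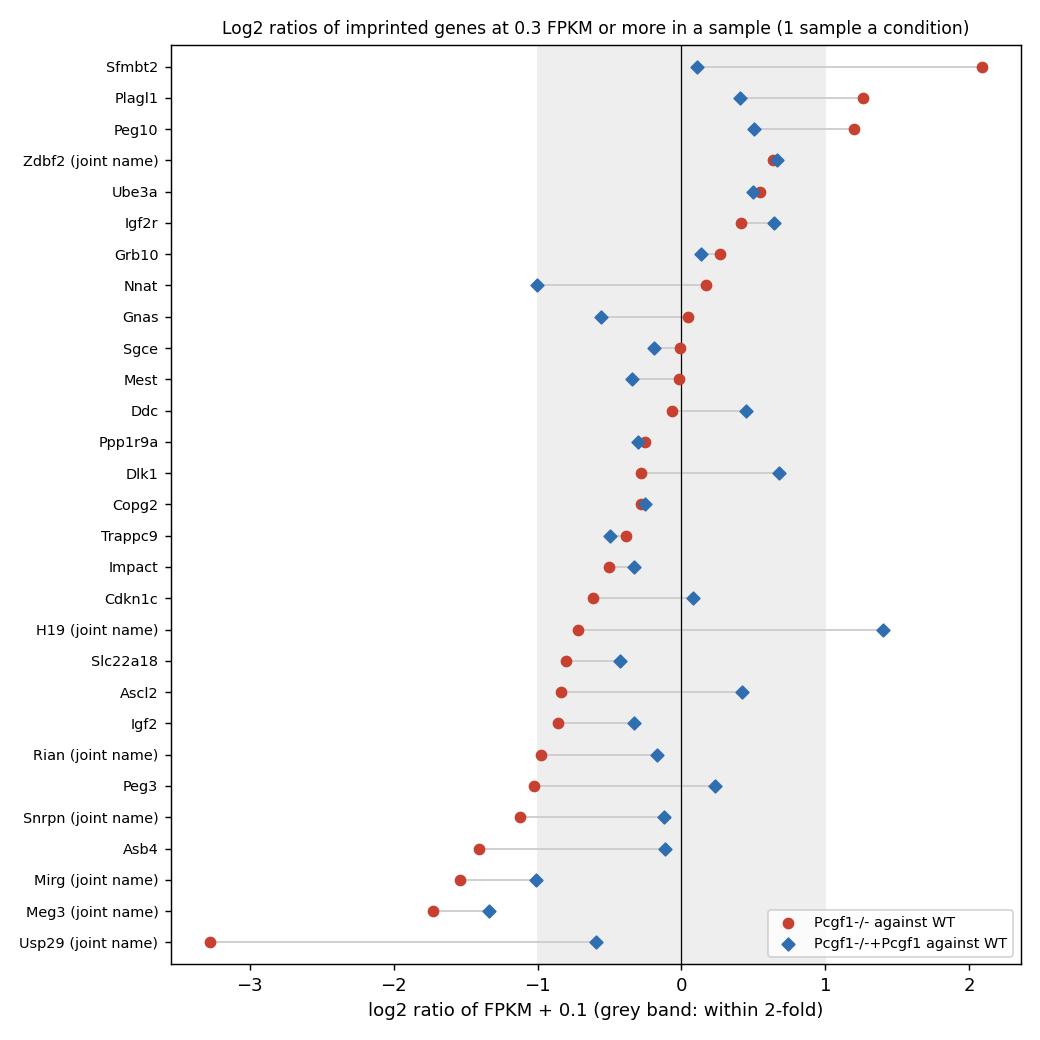
Log2 ratio of FPKM plus 0.1 against WT for imprinted genes that reach 0.3 FPKM in a sample, in Pcgf1-/- (circles) and Pcgf1-/-+Pcgf1 (diamonds), ordered by the first. The grey band is 2-fold, and Sfmbt2 lies at 2.09 in Pcgf1-/- and 0.11 in the rescue, while Meg3 lies left of the band in both and Mirg at its edge in the rescue. On sums over last exons Meg3 lies inside the band in the rescue (-0.44).

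Against Pcgf1-/-, 3 of the 24 imprinted genes with a level were higher in Pcgf1-/-+Pcgf1, namely Peg3, Ascl2 and Asb4, and 2 were lower, namely Sfmbt2 and Nnat. Over all 13700 genes 11.8% were higher and 4.11% lower in that comparison. Among genes of at least 1 FPKM, 2 of 21 imprinted genes were called each way, where 7.23% and 3.6% of all such genes were. The median log2 ratio was 0.10 over the imprinted genes and 0.05 over all genes. This comparison shares the Pcgf1-/- sample with the one before, so the values are not independent. Against WT, 0 of 25 imprinted genes were higher in Pcgf1-/-+Pcgf1 and 1 (Nnat) was lower, where 7.31% and 4.32% of 13824 genes were called. Among genes of at least 1 FPKM the counts were 0 and 1 of 21, where 3.84% and 2.65% were called. The median log2 ratio was 0.08 over the imprinted genes and -0.07 over all genes.

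By the parental copy that textbooks give as expressed, 3 of 12 paternally expressed genes were higher in Pcgf1-/- than in WT and 1 lower (Peg3). Of 13 maternally expressed genes 0 were higher and 1 lower (Asb4). Over all genes 4.07% were higher and 9.41% lower. The median log2 ratios were -0.04 and -0.26. These counts are of the genes named alone, and the joint names add Meg3 and Mirg on the maternal side and Usp29 and Snrpn on the paternal side, all lower in Pcgf1-/-.

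Genes that keep imprints were read from a list of 20, of which 17 were named alone. Only Dppa3, which protects maternal methylation in the early embryo, passed 2-fold in Pcgf1-/- against WT, and it was lower, at 38.3 FPKM in WT, 17.5 in Pcgf1-/- and 60.1 in the rescue. Zfp57 was at 106.7, 87.9 and 101.6 FPKM, Trim28 at 648.9, 553.2 and 604.8 FPKM, and Dnmt1 at 56.2, 51.4 and 52.4 FPKM in the same order. These 3 were named after their values had been seen, because they are the factors introduced above. None of 17 other Polycomb genes named alone passed 2-fold in Pcgf1-/- against WT. Rnf2 and Kdm2b, also on that list, were not named alone in all 3 files and were not read. Over all genes 4.07% were higher and 9.41% lower in this comparison.

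Markers of the feeder fibroblasts were lower in Pcgf1-/- too, for part of their list. The list has 23 markers, 19 of them named alone, and of the 18 above 0 in a sample, 6 were more than 2-fold lower in Pcgf1-/- than in WT and 0 were higher, and in Pcgf1-/-+Pcgf1 against Pcgf1-/- 6 were higher and 1 (Twist1) lower. Over all genes 9.41% were lower in the first comparison, and 11.8% were higher and 4.11% lower in the second. The 6 lower ones in Pcgf1-/- were Col1a1, Col1a2, Col6a1, Thy1, Pdgfrb and Timp3. Col1a1 was at 1.88 FPKM in WT, 0.39 in Pcgf1-/- and 2.21 in the rescue, and Thy1 at 14.2, 6.39 and 13.5 FPKM. The summed level of the list was 386.1 FPKM in WT, 382.2 in Pcgf1-/- and 373.5 in the rescue, most of it from Sparc and Fn1. In the other direction, Dcn was at 0.352 FPKM in WT and 0.779 in Pcgf1-/-, and Twist1 at 2.09 and 3.19 FPKM. Postn was at 0 in all 3 samples, and Lum and Prrx1 were at 0 in Pcgf1-/-. Of 7 ES cell markers named alone, none passed 2-fold in Pcgf1-/- against WT. The part of the feeder cells in the levels of Meg3, Mirg, Igf2, Peg3 or any other imprinted gene was not tested, and in bulk RNA fewer cells of a type and less RNA per cell cannot be told apart.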

How the data were processed

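The data are 3 RNA-seq libraries of ES cells, 1 for each condition, grouped by the genotype in the labels. Poly(A) RNA was made into libraries with a kit that, as described, does not mark strand, so antisense or overlapping genes (Airn and Igf2r, Nespas and Gnas, Mest and Copg2, Mcts2 and H13, Nnat and Blcap, Kcnq1ot1 and Kcnq1, Peg13 and Trappc9) are parted only by splicing. Per the submitters' processing notes, TopHat2 2.0.12, Cufflinks 2.2.1, HTSeq 0.6.0 and the build mm10 were used, and the methods describe RPKM and DEGseq, which were not used here. The file that the authors deposited for a sample gives an FPKM to each event of a transcript (first, last or skipped exons and the like), and the program that made it is not given in the sources used here. The files hold 156133, 155552 and 156379 rows for WT, Pcgf1-/- and Pcgf1-/-+Pcgf1, of which 62.0% to 63.6% are at 0. No counts are given, so no count-based test was run.

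The FPKM of first-exon (TSS) rows and of last-exon (TTS) rows were summed per gene name, and the larger sum was used. Joint names, rows without a name and date-like names were excluded from the comparison over all genes, and genes named alone in all 3 files were kept. Genes at 0 in both samples of a comparison gave no ratio. Ratios were log2 of FPKM plus 0.1, and 2-fold was the limit. The calling step was tested on simulated data. First and last exons were compared with the GENCODE vM21 exons of the same gene symbol only. Of the 232 rows of imprinted genes, 87.1% shared at least 1 end with such an exon.

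All 48 genes were accounted for, values were printed for every member of at least 1 FPKM in a sample or past 2-fold in a comparison, and other genes were named if they are Pcgf1 or a listed gene past 2-fold in Pcgf1-/- against WT. The exceptions were picked after their values had been seen: Airn, Slc22a3, Zim1 and H19 among the low members, Zfp57, Trim28 and Dnmt1, and the markers Sparc, Fn1, Postn, Lum, Prrx1, Dcn and Twist1. Rnf2 and Kdm2b were named only as listed genes that were not read. The members and lists were chosen with earlier results of these data known. The 6 other settings were 2 pseudocounts (1 and 0.01 FPKM), a minimum of 1 FPKM, first-exon rows only, last-exon rows only and median-of-ratios scaling. Scripts ran under Python 3.11.15 (numpy 2.4.6, matplotlib 3.10.9, pandas 2.3.3).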

Additional observations from a re-analysis of the deposited data

Results flagged for a closer look

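Several signals in imprinted clusters lay outside the gene levels described above and were at 0 or below a cutoff in WT. An unnamed locus on the minus strand of the Gnas cluster on chromosome 2 was listed at 0.835 FPKM in Pcgf1-/- (174321535 to 174326130) and at 1.88 FPKM in Pcgf1-/-+Pcgf1 (174321507 to 174327399). Only unnamed first exons of at least 0.5 FPKM were searched, and WT had none there, so a lower WT value would have been missed. Rows for exons inside genes were at 0 in WT and at 1 FPKM or more in another sample for 5 imprinted genes, and lower values of that kind were not counted. Dlk1 had an alternative-exon row at 4.40 FPKM in Pcgf1-/-+Pcgf1 only. Exon-skipping events have separate rows, read here as the exon kept (ON) or left out (OFF). Sfmbt2 rows of each form reached 5.70 FPKM in Pcgf1-/-, where the gene as a whole was highest. For Ube3a the rows at 0 in WT were all of the ON form, at 3.75 FPKM in Pcgf1-/- and 3.33 in Pcgf1-/-+Pcgf1. The OFF form of the same Ube3a exons was listed throughout, at 7.31 FPKM in WT, 6.98 in the knockout and 7.05 in the rescue. Plagl1 had rows of each form at 1.15 FPKM, in Pcgf1-/- only. Another OFF row of the same Plagl1 exon (13091775 to 13091812) was at 1.27 FPKM in WT, 2.03 in Pcgf1-/- and 1.06 in the rescue. A related ON row over the same stretch (13105855 to 13112550) was at 0.845, 2.03 and 1.06 FPKM in that order. The forms themselves were thus not limited to Pcgf1-/-. Zdbf2 had a row of the OFF form at 1.41 FPKM in Pcgf1-/- only. With 1 sample per condition none of these was tested.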

How the results depend on the processing

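With 1 sample per condition, precision is limited by the lack of replicates, and no library could be left out. No paired analysis was possible because each condition has 1 sample and the labels give no replicate numbers. Of 497 log2 ratios of single genes named alone under 8 alternatives, 485 stayed on the same side of 2-fold, 12 crossed it and 0 called ratios changed sign. The minimum of 1 FPKM (63 of these ratios) and the joint names counted in (66) leave a single-gene ratio unchanged by construction. First-exon rows only (66) left them in place as well, since each of these genes had, to within rounding, its larger sum there. The ratios under these settings could not cross and say nothing about stability. Counts that moved by more than 1.5 times and medians that moved by more than 0.1 follow, and the cause was not tested. In Pcgf1-/- against WT, the 2 lower genes became 0 at a pseudocount of 1 FPKM, and 1 with a minimum of 1 FPKM, with last-exon rows only (where 7 members have no value) and with median-of-ratios scaling. The median of -0.06 became -0.27 on last-exon rows. In Pcgf1-/-+Pcgf1 against Pcgf1-/-, the median of 0.10 became -0.047 with a minimum of 1 FPKM and -0.0084 on first-exon rows, and the 2 lower genes became 1 on last-exon rows. In Pcgf1-/-+Pcgf1 against WT, the 0 higher genes became 2 at 0.01 FPKM and 1 on last-exon rows, the 1 lower gene became 2 at 0.01 FPKM and 0 at 1 FPKM, on last-exon rows and with scaling, and the median of 0.08 became -0.11 on first-exon rows. After the data had been seen, joint names were counted in, which gave 6 lower genes and a median of -0.28 in Pcgf1-/- against WT, 6 higher and 0.33 in the rescue against Pcgf1-/-, and 1 higher, 3 lower and -0.12 in the rescue against WT. First exons listed in all 3 files, also added then, gave 1 higher gene and a median of -0.15 in the rescue against WT. Smaller moves were, for Pcgf1-/- against WT, 2 higher genes in place of 3 at 1 FPKM and 3 lower in place of 2 at 0.01 FPKM, and for the rescue against Pcgf1-/-, 2 higher in place of 3 at 1 FPKM, with the minimum and on last-exon rows, and 4 at 0.01 FPKM and on shared first exons. Among the joint names, whose ratios were also recomputed after the data had been seen, that of H19 in the rescue against Pcgf1-/- turned from 2.12 to -0.33 on first-exon rows, where both samples are at or near 0.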

Other observations

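An unnamed locus on an alternate scaffold of the assembly was listed in WT only, with a first exon at 3.07 FPKM. Its coordinates on that scaffold have the numerical range of Meg3 on chromosome 12, and its relation to Meg3 was not determined here.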
